A study of Homo sapiens with 6 samples.

Results

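Imprinted genes were examined in 6 RNA-seq libraries of HEK-293T cells, an immortalized line of human embryonic kidney origin that carries the SV40 large T antigen. The members are 37 genes listed by symbol, 31 protein-coding and 6 long noncoding, and all 37 had a row among the 58870 rows of the deposited table. IGF2 has a further row under a second identifier, which held 0 counts in every library. The 3 WT libraries carry the genotype label Thumpd+/+ and the 3 THUMPD1 KO libraries the label Thumpd-/-. THUMPD1 is the adaptor that NAT10 needs to acetylate cytidine in leucine and serine tRNAs. KO cells were made with CRISPR-Cas9 from the same line and passed through single-cell sorting, so genotype and clone cannot be told apart here. All libraries are total RNA depleted of ribosomal RNA, with no treatment that differs between the genotypes.

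Imprinted genes are transcribed mainly from the copy inherited from one parent. The choice is set in the germ line by DNA methylation at imprinting control regions, which is kept through later divisions by KRAB zinc-finger proteins, TRIM28 and DNMT1. Many of the genes lie in clusters where a noncoding RNA or an insulator links the fates of neighbours, and many act on fetal growth, the placenta or the brain. The counts used here hold no allele information, so they give the summed level of both copies. In bulk RNA, fewer cells expressing a gene and less of its RNA per cell cannot be told apart. The labels do not say whether the libraries came from separate cultures, so p values measure the spread between these libraries, which may be technical.

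Total expected counts lay between 32225646 and 44099898 per library, so that 3 counts, taken as the floor below which a gene cannot be told from 0, correspond to 0.0680 to 0.0931 CPM, the counts scaled to the total of each library. THUMPD1 had 3258, 3315 and 3013 counts in WT and 395, 529 and 353 in KO. Its level was 80.9 ± 3.65 CPM in WT and 11.04 ± 0.918 CPM in KO (SD, n = 3), which is 13.6% of WT, with a log2 fold change of −2.87, and every library stood on the side that its label gives. An exact permutation test gave two-sided p = 0.1, and a design of 3 against 3 cannot go lower. Of markers for the labelled line, VIM ranged from 258 to 312 CPM and NEFL from 53.6 to 75.9 CPM, PAX2, LHX1, WT1, GATA3, NEFM and INA were detected in every library, EPCAM stayed below 1 CPM, and PAX8, a kidney factor, had at most 1 count. PTPRC of blood cells and PECAM1 of endothelium had at most 4 counts in any library.

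Of the 37 genes, 22 were expressed by the rule that 3 or more of the 6 libraries reach 1 CPM, and the same 22 were tested. Of the other 15, 11 stood at the floor with 3 counts or fewer in every library, and 7 of these 11 had 0 counts in all 6 libraries. The remaining 4 (H19, DIRAS3, NAP1L5 and MAGEL2) lay between the floor and the filter. Of 21 genes known as paternally expressed, 9 were expressed and 9 stood at the floor. Of 8 known as maternally expressed, 5 were expressed and 2 (MEG3 and MEG8) stood at the floor. All 8 genes whose parental preference is weak or limited to some tissues or transcripts (UBE3A, IGF2R, GRB10, GNAS, BLCAP, INPP5F, RB1 and TRAPPC9) were expressed.

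Per kb of annotated exon, GNAS, which encodes the stimulatory G protein alpha subunit, was the highest of the 22 at 27.2 CPM per kb over all 6 libraries. PLAGL1, a zinc-finger factor that restrains growth, followed at 14.0 CPM per kb and RB1, the retinoblastoma gatekeeper of the cell cycle, at 13.7, and the library ranges of these neighbours overlapped. The next 3 were IGF2R, which carries IGF2 to the lysosome, at 9.08, GRB10, an adaptor that dampens insulin signalling, at 8.74, and UBE3A, a ubiquitin ligase, at 7.12 CPM per kb. Within these 3, each overlapped the next, whereas GNAS, RB1, UBE3A and BLCAP (5.66 CPM per kb) stood clear of the gene that followed. From KCNQ1OT1 at 3.79 down to INPP5F at 2.53 CPM per kb, the 5 genes overlapped in sequence. The lower end held SLC22A18 at 0.328, IGF2 at 0.315, KCNQ1 at 0.295 and PEG10 at 0.189 CPM per kb. The median of the expressed genes was 2.59 CPM per kb, beside 4.96 over all tested genes with an annotated length. It was 7.93 for the 8 genes of limited preference, 1.98 for the 9 paternally expressed and 0.959 for the 5 maternally expressed genes. With the longest annotated transcript in place of all exons, these group medians became 14.5, 3.83 and 1.22 CPM per kb. The order of single genes changed as well. On that length GRB10 was at 15.7, UBE3A at 14.5, IGF2R at 14.4 and SGCE at 2.82 CPM per kb. The overlap of library ranges was compared with all exons only.

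Between genotypes, 6 members differed by limma-voom at a Benjamini-Hochberg adjusted p under 0.05, 5 higher in THUMPD1 KO and 1 lower. That is 6 of 22, beside 26.7% of all 15088 genes tested, and by direction 13.7% of all genes were higher and 13.0% lower, so the share called was near that of all genes. IGF2 and PHLDA2 passed the filter through the KO libraries, where they are high, and the count is therefore no measure of how often imprinted genes differ. The median log2 fold change of the 22 was 0.06, beside 0.02 over all genes tested, with 12 above 0 and 10 below. The genotypes did not overlap in CPM for 9 of the 22, beside 42.2% of all genes tested. The replicate numbers were taken to pair the libraries across genotypes, from correlations between libraries and not from any label. With the replicate as a block, 9 of the 22 were called, beside 35.1% of all genes. The 3 added by the block were GRB10, RB1 and TRAPPC9, all lower. Without WT library 3, or without KO library 3, 3 members were called. The share of all genes called in those fits was not worked out, so the lower count cannot be read as particular to these genes.

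**Figure D1:**
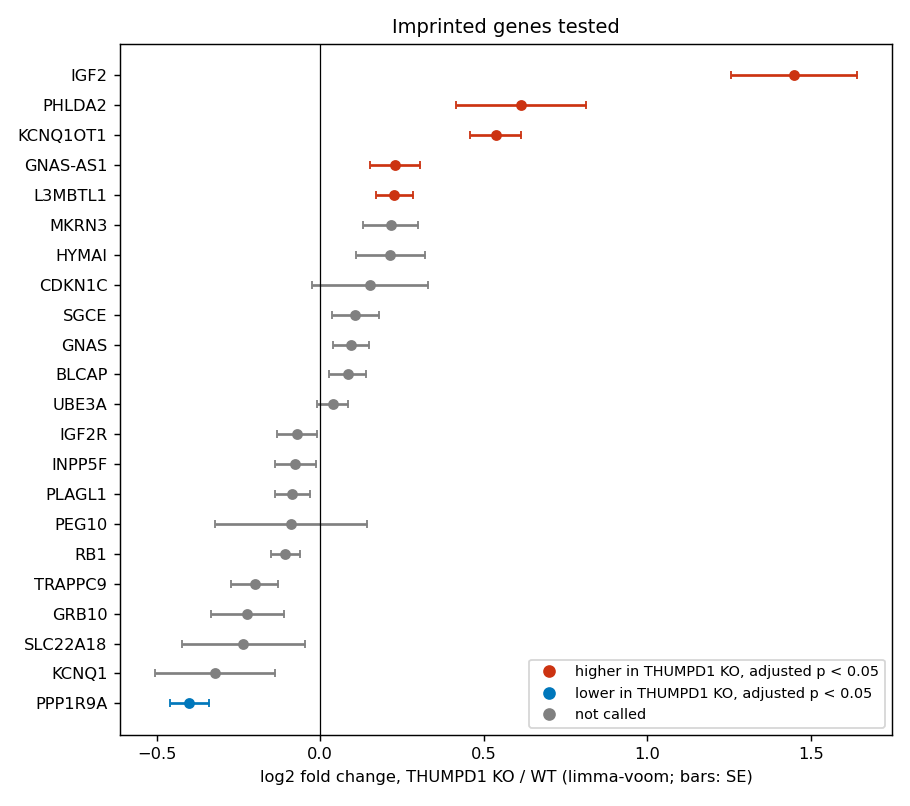
Log2 fold change of THUMPD1 KO over WT for the 22 imprinted genes tested, from limma-voom, with bars of 1 SE and colour for genes past an adjusted p of 0.05. IGF2 lies apart at 1.45, PHLDA2 and KCNQ1OT1 follow at 0.61 and 0.54, and PPP1R9A is the lowest at −0.40.

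IGF2 and H19, neighbours at the end of chromosome 11 that are known to be expressed from opposite parental copies, were both low in WT cells and higher in KO cells. IGF2 encodes a fetal growth factor and lies at chr11:2129112-2158391 on the minus strand (GRCh38). Its expected counts were 69.0, 35.0 and 34.3 in WT and 121, 141 and 120 in KO. In CPM these were 1.64, 0.894 and 0.921 in WT and 3.13, 3.19 and 3.72 in KO, so every KO library lay above every WT library. The mean rose from 1.15 ± 0.422 to 3.34 ± 0.328 CPM (SD, n = 3), a ratio of 2.91, with a log2 fold change of 1.45 (SE 0.193, limma-voom adjusted p = 0.000399). Every alternative in which IGF2 was tested kept this call, with leave-one-out log2 fold changes from 1.32 to 1.66. The annotation places INS-IGF2, a readthrough of the insulin gene, over 1460 bp of IGF2 exon, and that row held 0 counts.

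H19, a noncoding RNA that shares enhancers with IGF2, lies at chr11:1995166-2004552 on the minus strand. It had 15, 18 and 12 counts in WT and 72, 45 and 31 in KO, again without overlap. Its level was 0.379 ± 0.0717 CPM in WT and 1.28 ± 0.498 CPM in KO (SD, n = 3), a ratio of 3.37. Only 2 libraries, both KO, reached 1 CPM, so H19 was below the filter of the main test. In the fit with no CPM filter, where 10.1% of 31730 genes were called, its log2 fold change was 1.56 with limma-voom adjusted p = 0.0180. Both transcripts of the pair were thus higher in KO cells, each from a WT mean near 1 CPM or below. The 17 tested genes within 1 Mb of IGF2 had a median log2 fold change of 0.15, with 6 called higher and none lower.

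**Figure D2:**
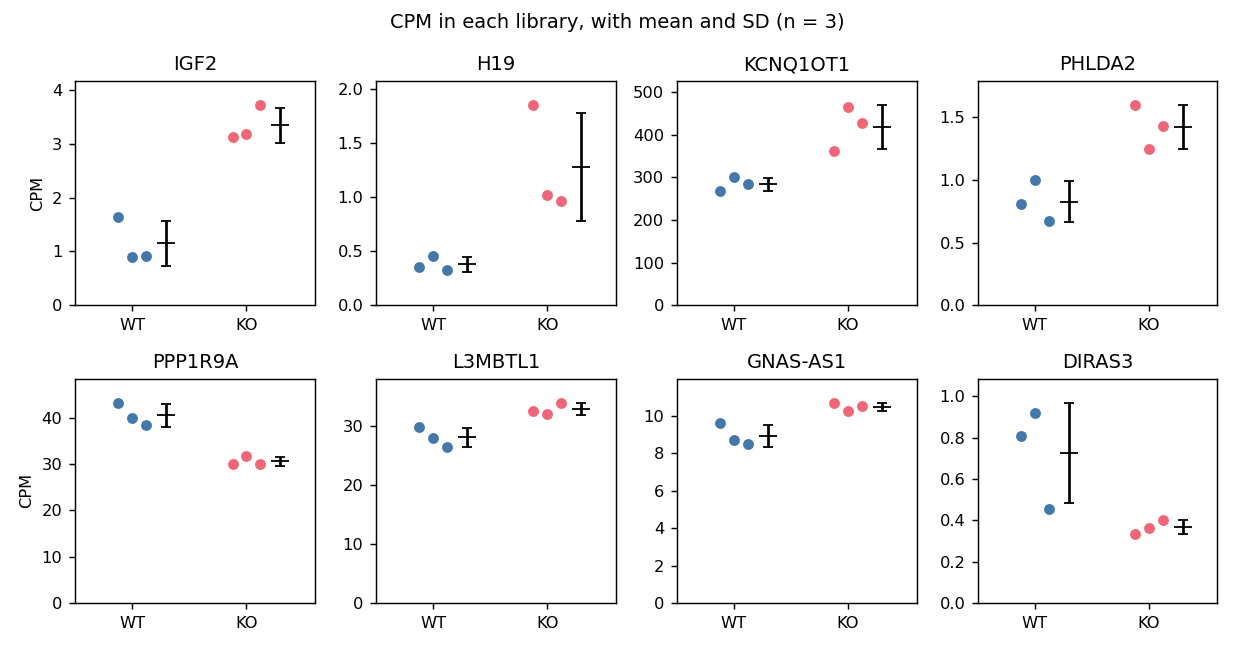
CPM of 8 imprinted genes in each of the 3 WT and 3 THUMPD1 KO libraries, with the mean and SD beside the points and a separate axis from 0 for each gene. The 8 are the 6 called genes with H19 and DIRAS3, which lie below the filter of the main test. The genotypes do not overlap in any of these chosen panels. Over the 22 tested members they did not overlap for 9, beside 42.2% of all genes tested.

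In the KCNQ1OT1 domain, further along the same arm, all 5 members were expressed and 2, KCNQ1OT1 and PHLDA2, were higher in KO cells, beside 13.7% of all genes. PHLDA2 was tested only through its level in KO, and its call was lost in 5 of the 6 fits that leave out 1 library. KCNQ1OT1 is a very long noncoding RNA read antisense to KCNQ1 and is known to silence its neighbours on the paternal copy. Its counts were 11325, 11750 and 10587 in WT and 14063, 20480 and 13787 in KO. In CPM these were 269, 300 and 284 in WT and 362, 464 and 428 in KO, with no overlap. The mean rose from 284 ± 15.6 to 418 ± 51.9 CPM (SD, n = 3), a ratio of 1.47, with a log2 fold change of 0.54 (SE 0.0771, limma-voom adjusted p = 0.000654), and the call held in every alternative. The level per length was modest, at 3.07 CPM per kb in WT and 4.51 in KO, because the annotated exons span 92625 bases. The 16 tested genes within 1 Mb had a median log2 fold change of 0.13, with 5 called higher and 1 lower.

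KCNQ1OT1 shares 121 bp of exon with KCNQ1 on the opposite strand, and the sources do not tell whether counting used strand. KCNQ1, a potassium channel subunit, had 60, 53 and 53 counts in WT and 58, 51 and 33 in KO. The genotypes overlapped, with a log2 fold change of −0.32 (limma-voom adjusted p = 0.217). CDKN1C, an inhibitor of cyclin-dependent kinases, was at 2.21 ± 0.458 CPM in WT and 2.55 ± 0.207 CPM in KO, with a log2 fold change of 0.15 (limma-voom adjusted p = 0.564). SLC22A18, an organic cation transporter, had a log2 fold change of −0.23 (limma-voom adjusted p = 0.387). Of the 4 maternally expressed members of the domain, 2 had a log2 fold change above 0 and 2 below, and 1 was called.

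PHLDA2, which restrains placental growth, was that gene. It had 34, 39 and 25 counts in WT and 62, 55 and 46 in KO, or 0.825 ± 0.163 and 1.42 ± 0.174 CPM (SD, n = 3), with every KO library above every WT library. On the log2 scale the difference was 0.61 (SE 0.198, limma-voom adjusted p = 0.0416, and 0.0464 with the replicate block). No WT library reached 1 CPM. In the 5 fits without 1 library that lost the call, the adjusted p was 0.103 without WT library 1, 0.146 without WT library 3, 0.0987 without KO library 1, 0.0525 without KO library 2 and 0.0964 without KO library 3. It was also lost with no filter (0.0933) and with DESeq2 (0.0603).

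On chromosome 7, PPP1R9A was the 1 member called lower, while PEG10 and SGCE from the same cluster were not called. PPP1R9A encodes neurabin, an actin-binding scaffold for protein phosphatase, and lies at chr7:94907202-95296415 on the plus strand. Its CPM values were 43.3, 39.9 and 38.4 in WT and 30.0, 31.8 and 30.1 in KO, with every KO library below every WT library. The mean fell from 40.5 ± 2.50 to 30.6 ± 0.976 CPM (SD, n = 3), with a log2 fold change of −0.40 (SE 0.0601, limma-voom adjusted p = 0.000841), and the call held in every alternative. SGCE, a sarcoglycan known from myoclonus dystonia, was at 17.2 ± 0.972 CPM in WT and 18.2 ± 1.25 CPM in KO (log2 fold change 0.11, limma-voom adjusted p = 0.296). PEG10, a gene derived from a retrotransposon, had 40, 54 and 52 counts in WT and 49, 47 and 49 in KO. The log2 fold change of −0.09 (limma-voom adjusted p = 0.809) turned its sign with other library scalings. The 6 tested genes within 1 Mb of PPP1R9A, which include PEG10 and SGCE, had a median log2 fold change of 0.01, with 1 called higher and 1 lower.

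Whole clusters were near or at 0 in both genotypes. In the DLK1 and MEG3 cluster on chromosome 14, DLK1, a Notch-related ligand, and RTL1, a placental gene of retrotransposon origin, had 0 counts in every library. MEG3 had 1 count in all 6 libraries together, and MEG8 had 1, 0 and 0 counts in WT and 1, 1 and 2 in KO. Over the span from DLK1 to MEG8 (chr14:100725705-101038859), 79 of 81 rows held 0 counts in every library, and the highest count in any library was 2. Many of these rows are short miRNA and snoRNA genes, and whether the libraries capture such RNAs was not tested. Over the whole table, 31730 of 58870 rows held any count. The SNORD113 and SNORD114 snoRNA copies of this cluster, 39 rows, were all at 0.

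In the PEG3 cluster on chromosome 19, PEG3, a zinc-finger gene, had 1 count in 1 WT library, and ZIM2, which shares 1264 bp of exon with it, had none. The surrounding stretch of the chromosome was active. The 39 tested genes within 1 Mb of PEG3 had a median log2 fold change of 0.37, with 24 called higher in KO and none lower, while PEG3 and ZIM2 stayed at the floor in KO cells. MEST, a hydrolase gene on another part of chromosome 7, had at most 1 count in any library. COPG2, its neighbour on the opposite strand with 228 bp of shared exon, had a mean of 2161 counts and was not called (log2 fold change −0.06, limma-voom adjusted p = 0.400).

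The Prader-Willi and Angelman domain on chromosome 15 was at 0 in its centre and expressed at both ends. SNRPN and SNURF, a bicistronic pair with 813 bp of shared exon, and NDN, a MAGE-family gene of neurons, had 0 counts in all 6 libraries. SNHG14, the long host RNA of this domain, was at 0 as well, as were all 30 SNORD116 and all 48 SNORD115 rows, which were looked up after the values of SNHG14 were seen. Whether the libraries capture these short snoRNAs was not tested. MAGEL2, a partner of ubiquitin ligases, had 2, 0 and 0 counts in WT and 5, 1 and 3 in KO, which overlap. From MAGEL2 to SNRPN (chr15:23643549-24978723), 14 of 16 rows held no count, and the highest count was 11, in RPL5P1, a pseudogene inside SNRPN. Beside this, 31730 of the 58870 rows of the table held any count.

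At the ends of this domain stood MKRN3 and UBE3A. MKRN3, a ubiquitin ligase gene whose loss brings early puberty, had 13.7, 13.1 and 12.3 CPM in WT and 14.1, 15.1 and 16.4 CPM in KO, without overlap. Its log2 fold change of 0.22 (SE 0.0841) missed the threshold with limma-voom adjusted p = 0.0821, and 0.0534 with the block, and passed it only without KO library 1 (0.0219). UBE3A, whose paternal copy SNHG14 silences in neurons, was at 132 ± 5.16 CPM in WT and 139 ± 5.39 CPM in KO (log2 fold change 0.04, limma-voom adjusted p = 0.584).

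PLAGL1 and HYMAI lie on the minus strand of chromosome 6, are known to share a promoter and have 289 bp of exon in common, so reads of the common part were divided between them by estimation. PLAGL1 was at 92.1 ± 6.996 CPM in WT and 87.1 ± 2.93 CPM in KO, with a log2 fold change of −0.09 (limma-voom adjusted p = 0.274). HYMAI, a noncoding RNA at chr6:144004916-144008262, had 8.96, 8.58 and 8.56 CPM in WT and 8.90, 10.8 and 10.8 CPM in KO. The log2 fold change of 0.21 (limma-voom adjusted p = 0.162) passed the threshold only without KO library 1 (0.0193).

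On chromosome 20, L3MBTL1 and GNAS-AS1 were called higher by small amounts. L3MBTL1, a chromatin compactor that reads methylated histones, had 29.8, 28.0 and 26.5 CPM in WT and 32.6, 32.02 and 34.0 CPM in KO, without overlap. Its mean rose from 28.1 ± 1.66 to 32.9 ± 1.01 CPM (SD, n = 3), with a log2 fold change of 0.23 (SE 0.0569, limma-voom adjusted p = 0.0137). The call was lost without WT library 3 (0.0692) and without KO library 3 (0.0577). A gene model that is not a row of the table shares 3370 bp of exon with L3MBTL1 on the same strand.

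GNAS-AS1, a paternally expressed antisense RNA, had 9.61, 8.71 and 8.48 CPM in WT and 10.7, 10.3 and 10.6 CPM in KO, without overlap. Its log2 fold change of 0.23 (SE 0.0771) reached a limma-voom adjusted p of 0.0499, and 0.0436 with the block. The call was lost without WT library 2 (0.119), WT library 3 (0.159), KO library 1 (0.0673), KO library 2 (0.128) or KO library 3 (0.116), and under 7 other settings, so its adjusted p ranged from 0.0436 to 0.166. GNAS on the opposite strand covers 1127 bp, or 30.8%, of GNAS-AS1 exon, and reads of both cannot be told apart there unless the counting used strand. GNAS itself was at 588 ± 27.2 CPM in WT and 619 ± 37.7 CPM in KO, with a log2 fold change of 0.09 (limma-voom adjusted p = 0.232). NNAT, a neuronal proteolipid gene inside BLCAP, had 0 counts in every library. BLCAP, an apoptosis-linked gene, was at 43.2 ± 3.03 CPM in WT and 45.9 ± 1.51 CPM in KO (log2 fold change 0.08, limma-voom adjusted p = 0.295).

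Among the imprinted genes that stand alone at other loci, none passed the main test apart from L3MBTL1. GRB10 had 111, 77.9 and 86.9 CPM in WT and 87.6, 71.4 and 78.3 CPM in KO, so each KO library was below the WT library of its number while the groups overlapped. Its log2 fold change was −0.22 with limma-voom adjusted p = 0.168, 0.00548 with the replicate block and 0.0358 without WT library 2. RB1 had 89.6, 90.6 and 92.9 CPM in WT and 83.7, 84.2 and 88.4 CPM in KO, without overlap. For RB1 the log2 fold change was −0.11, with adjusted p = 0.0951 by limma-voom and 0.0471 with the block.

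TRAPPC9, a subunit of a vesicle tethering complex, had 19.7, 16.5 and 18.3 CPM in WT and 16.5, 14.7 and 15.6 CPM in KO. Its log2 fold change was −0.20, and the limma-voom adjusted p was 0.0648, with 0.0304 in the block, 0.0383 with TMM scaling, 0.0366 by edgeR, 0.0414 by DESeq2 and 0.0381 without WT library 2. IGF2R was at 210 ± 14.5 CPM in WT and 201 ± 15.8 CPM in KO (log2 fold change −0.07, limma-voom adjusted p = 0.419). INPP5F, a phosphoinositide phosphatase, was at 19.5 ± 0.247 CPM in WT and 18.3 ± 0.200 CPM in KO (log2 fold change −0.08, limma-voom adjusted p = 0.405). Of the 8 genes of limited preference, none was called in the main test, beside 26.7% of all genes, and 3 were called with the block, all lower, a share near the 35.1% of all genes called in that fit.

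DIRAS3, a RAS-like GTPase that restrains growth, had 34, 36 and 17 counts in WT and 13, 16 and 13 in KO, or 0.727 ± 0.242 and 0.367 ± 0.0346 CPM (SD, n = 3), below the filter. The groups did not overlap. In the fit with no CPM filter its log2 fold change was −1.04 with limma-voom adjusted p = 0.0776. NAP1L5, a histone chaperone relative, had 5, 7 and 3 counts in WT and 3, 10 and 0 in KO, too few to show a difference at this depth.

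By known parental preference, 4 of the 9 paternally expressed genes tested were called, all higher (IGF2, KCNQ1OT1, L3MBTL1 and GNAS-AS1), beside 13.7% of all genes called higher. IGF2 is among these only through its level in KO, and the calls of L3MBTL1 and GNAS-AS1 were lost in some of the alternatives given above. Of the 5 maternally expressed genes tested, PHLDA2, which also passed the filter through KO, was called higher and PPP1R9A lower. The median log2 fold change was 0.22 over the 9 paternally and −0.23 over the 5 maternally expressed genes, beside 0.02 over all genes tested. The difference between these groups was not tested.

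A further list of 51 genes with reported parent-of-origin expression had 49 rows in the table and 25 genes tested. Of these, 7 were called higher and 5 lower, beside 26.7% of all genes in either direction. ZNF331, a zinc-finger gene, rose from 14.9 ± 0.820 to 24.2 ± 0.681 CPM (SD, n = 3, log2 fold change 0.70, limma-voom adjusted p = 2.65e-05). TFPI2, a protease inhibitor from the PEG10 cluster, rose from 1.06 ± 0.146 to 2.46 ± 0.109 CPM (log2 fold change 1.09, limma-voom adjusted p = 0.000577). ZC3H12C, an RNA-binding zinc-finger gene, rose from 22.4 ± 0.367 to 28.1 ± 0.202 CPM (log2 fold change 0.34, limma-voom adjusted p = 0.00127).

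Of the 6 genes of that list with the smallest adjusted p, the other 3 were lower. FAM50B, a retrogene known as paternally expressed, fell from 5.74 ± 0.755 to 3.16 ± 0.584 CPM (log2 fold change −0.95, limma-voom adjusted p = 0.000991). COBL, an actin nucleator next to GRB10, fell from 30.1 ± 1.69 to 22.0 ± 1.28 CPM (log2 fold change −0.44, limma-voom adjusted p = 0.00117). DGCR6L fell from 35.3 ± 0.323 to 22.5 ± 2.37 CPM (log2 fold change −0.64, limma-voom adjusted p = 7.38e-05). The 35 tested genes within 1 Mb of DGCR6L had a median log2 fold change of −0.39, with 28 called lower and none higher. The 34 around ZNF331 had a median of 0.17, with 13 called higher and 2 lower. NAA60 and DGCR6, named after their values were seen, were also called lower. Around NAA60, 35 of 58 tested genes were called lower, and around DGCR6, 19 of 29, with none higher around either. Over all genes tested, 13.7% were called higher and 13.0% lower. The part of the surroundings in these values was not tested. The 14 tested genes around FAM50B had a median of −0.04, and the 9 around TFPI2 a median of 0.06.

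Genes whose products set, read or keep imprints were examined as a list of 37, of which 27 were tested, 2 called higher and 4 lower, beside 26.7% of all genes. SETDB1, the histone methyltransferase recruited by TRIM28, rose from 60.4 ± 4.38 to 78.7 ± 2.80 CPM (SD, n = 3, log2 fold change 0.37, limma-voom adjusted p = 0.000737). HELLS, a remodeller needed for DNA methylation, rose from 307 ± 4.17 to 353 ± 11.8 CPM (log2 fold change 0.18, limma-voom adjusted p = 0.00622). EHMT2, a histone H3 methyltransferase, fell from 93.5 ± 6.04 to 79.8 ± 1.84 CPM (log2 fold change −0.24, limma-voom adjusted p = 0.00627). TET1, which oxidizes methylated cytosine, fell from 132 ± 6.50 to 115 ± 6.59 CPM (log2 fold change −0.23, limma-voom adjusted p = 0.0107).

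The remaining calls of that list were UHRF1, which brings DNMT1 to replicated DNA, and STAG2, a cohesin subunit. UHRF1 had a log2 fold change of −0.16 (limma-voom adjusted p = 0.0154) and STAG2 one of −0.15 (0.0280). Without WT library 3, 3 of the list were called, and the share of all genes called in that fit was not worked out. The limma-voom adjusted p was then 0.0508 for TET1, 0.0654 for UHRF1 and 0.0887 for STAG2. UHRF1 was also lost without KO library 2 (0.0754), and STAG2 without WT library 1 (0.0605), KO library 2 (0.0741) or KO library 3 (0.107). The STAG2 call was lost as well with TMM scaling (0.0520), library sizes alone (0.0965) and edgeR (0.0715). DNMT3B, a de novo DNA methyltransferase, was not called in the main test (0.0551) and was called with the block (0.0303), TMM scaling (0.0333), edgeR (0.0330) and DESeq2 (0.0486). Among genes chosen after their values were seen, DNMT1 had a log2 fold change of 0.01 (limma-voom adjusted p = 0.884), TRIM28 one of −0.07 (0.375), ZNF445 one of −0.08 (0.365) and CTCF one of 0.09 (0.124). ZFP57, the zinc-finger protein known to hold methylated imprints, had 3 counts in all 6 libraries together.

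Promoter sequence was taken from RefSeq (GRCh38.p14) as 250 bases before to 50 after a start, using the first window listed for each gene, and 22 of the 37 members matched. No window was used for IGF2, KCNQ1OT1, MEG8, DLK1, PEG3, ZIM2, PEG10, SGCE, CDKN1C, KCNQ1, PHLDA2, SLC22A18, GNAS-AS1, NNAT or TRAPPC9. The windows were searched on both strands for TGCCGC, the core hexamer that ZFP57 binds when methylated, read as GCGGCA on the other strand. It was present in 11 of the 22 members, beside 16.7% of 27305 promoters of the same length. The members' windows had a median GC content of 61.8%, beside 58.3% for all. The hexamer holds a CpG, and the median ratio of observed to expected CpG was 0.732 for members, beside 0.580 for all. The part of base content in the share with the hexamer was not tested. Among expressed members 5 of 12 held the hexamer, and among those not expressed 6 of 10. A match is a run of letters, not a bound or methylated site. The 4 windows shown 5′ to 3′ with the hexamer in capitals belong to a pair of genes at the floor (SNURF and MEST) and a pair of expressed genes (HYMAI and L3MBTL1), chosen because all 4 windows hold it. Gene counts do not show which start is used, and the L3MBTL1 window lies inside the annotated gene, which starts at 43489442. Windows of other members, among them RB1, GNAS, SNRPN and MEG3, also lie inside the annotated gene. The 4 windows shown are SNURF at chr15:24954737-24955036 (plus strand), MEST at chr7:130485925-130486224 (plus strand), HYMAI at chr6:144008210-144008509 (minus strand) and L3MBTL1 at chr20:43507447-43507746 (plus strand).
SNURF: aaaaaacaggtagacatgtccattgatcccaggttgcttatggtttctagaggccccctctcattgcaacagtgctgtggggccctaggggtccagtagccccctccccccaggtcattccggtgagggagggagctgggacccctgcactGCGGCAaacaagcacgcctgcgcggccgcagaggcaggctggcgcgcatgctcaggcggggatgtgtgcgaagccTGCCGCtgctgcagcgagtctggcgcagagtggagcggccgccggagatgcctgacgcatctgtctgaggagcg
MEST: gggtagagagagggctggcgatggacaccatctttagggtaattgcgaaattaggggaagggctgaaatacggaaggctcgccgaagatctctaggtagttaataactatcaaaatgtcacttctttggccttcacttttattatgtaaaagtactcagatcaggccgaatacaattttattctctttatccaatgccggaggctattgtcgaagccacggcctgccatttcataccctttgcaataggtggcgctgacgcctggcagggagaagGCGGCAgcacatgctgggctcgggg
HYMAI: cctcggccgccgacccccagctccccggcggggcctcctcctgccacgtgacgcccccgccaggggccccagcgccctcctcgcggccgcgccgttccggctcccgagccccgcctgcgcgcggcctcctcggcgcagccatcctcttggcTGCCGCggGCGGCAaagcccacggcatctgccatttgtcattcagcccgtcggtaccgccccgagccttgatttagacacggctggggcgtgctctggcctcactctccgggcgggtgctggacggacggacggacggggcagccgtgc
L3MBTL1: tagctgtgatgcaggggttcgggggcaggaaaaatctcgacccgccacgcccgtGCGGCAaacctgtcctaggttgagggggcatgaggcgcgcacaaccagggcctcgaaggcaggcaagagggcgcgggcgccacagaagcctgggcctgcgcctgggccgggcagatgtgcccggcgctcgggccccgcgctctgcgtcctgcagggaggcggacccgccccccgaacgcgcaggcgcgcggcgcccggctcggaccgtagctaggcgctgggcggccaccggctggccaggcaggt
SNURF and HYMAI each held 2 hexamers, 1 on each strand, and MEST and L3MBTL1 held 1 each. The ratio of observed to expected CpG was 0.583 for SNURF, 0.737 for MEST, 0.928 for HYMAI and 0.858 for L3MBTL1.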

How the data were processed

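Total RNA of WT and THUMPD1 KO HEK-293T cells was sequenced in read pairs from stranded, rRNA-depleted libraries. The authors aligned reads to hg38 with STAR and deposited RSEM expected counts per gene, unscaled. The methods name GENCODE 46, and 58517 (99.4%) of the identifiers were found in GENCODE 44, used here for positions and exon lengths. Some identifiers, among them those of GNAS, MEG8 and KCNQ1OT1, carry lower versions than in GENCODE 44. The counts may thus rest on older gene models than the exon lengths, which limits the levels per kb. Floors cover counting error only.

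The main test took its design from the methods of the study. Genes reaching 1 CPM in 3 or more libraries (that number is not given there) entered quantile normalization, then limma-voom (version 3.58.1 in R 4.3.3) with genotype as the only term, and two-sided p values were adjusted over all 15088 genes by the Benjamini-Hochberg method. Alternatives were TMM or plain library sizes, other filters, edgeR 4.0.16 and DESeq2 1.42.0 on rounded counts, a replicate block, an adjusted p of 0.01 and leaving out each library. The fits were tested on simulated data. Same-numbered libraries deviated together over 15088 genes (correlations 0.171, 0.147 and 0.138, and −0.140 to 0.0194 otherwise), so numbers were taken to pair libraries, though no label explains them.

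Named were THUMPD1, all members, at most 6 called genes with the smallest adjusted p from each further list and at most 6 overlapping neighbours. Genes marked as named or chosen after their values were seen stand outside these limits. The members and lists were chosen with earlier results of these data known.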

Additional observations from a re-analysis of the deposited data

How the results depend on the processing

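Of the member fold changes, 267 of the comparisons with an alternative kept their direction and side of the threshold, 21 (3 genes) lost the call and 10 (5 genes) gained it. The number of members called was 3 with at least 1 CPM in all 6 libraries, where 19 were tested, 3 at an adjusted p under 0.01, and 3 to 7 when 1 library was left out. The number of imprint control genes called was 3 at an adjusted p under 0.01 and 3 to 6 when 1 library was left out. The share of all genes called under these settings was not worked out, so the lower counts cannot be read as particular to either list. With the longest annotated transcript, the median levels per kb were 3.83 (paternal), 1.22 (maternal) and 14.5 (limited). PEG10 turned from −0.09 to 0.023 with TMM, 0.045 with library sizes alone, 0.012 with edgeR and 0.016 with DESeq2, and ranged from −0.32 to 0.050 when 1 library was left out. The replicate block raised the members called from 6 to 9, the further imprinted genes from 12 to 13 and the imprint control genes from 6 to 7. Over all genes tested it raised the share called from 26.7% to 35.1%. The causes were not tested.

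The KO cells passed through single-cell sorting, and the labels do not say whether the 3 KO libraries share 1 clone. Differences between clones and the effect of the knockout therefore cannot be told apart. The counts carry no allele information and no methylation, so loss of imprinting was not measured. H19, PHLDA2 and IGF2 rest on 12 to 141 counts per library.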
